A study of Homo sapiens with 8 samples.

Results

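The genes that copy DNA and supply its building blocks were followed in ARP1 and H929, human cell lines of multiple myeloma, a cancer of plasma cells. The set holds 42 of the 24351 genes in the table. It was listed by gene name from known roles: origin recognition and licensing, unwinding, priming and synthesis, the sliding clamp, joining of the lagging strand, fork protection, and deoxynucleotide synthesis. The level of a gene is the sum over every transcript whose identifier maps to it, and all 8 libraries were used.

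RNA was sequenced from 4 genotypes in each line: CHEK1 overexpression with its own control, and CHEK1 knockdown with its own control. There was 1 library per line and genotype, so n = 2 lines per genotype and n = 4 libraries per line. By which means CHEK1 was changed, what the controls carry, and whether cells were pooled or cloned are not stated in the labels. Levels are FPKM, fragments per kilobase of transcript corrected for library size, which can be set side by side between genes because length is divided out.

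Before replication, the origin recognition complex (ORC) with CDC6 and CDT1 loads the MCM ring onto DNA, and geminin, encoded by GMNN, stops reloading once copying has begun. CDC45 and the GINS complex turn the ring into the active helicase, primase with polymerase alpha starts each strand, and polymerases epsilon and delta extend it on the PCNA clamp that the RFC complex loads. CHK1, the kinase encoded by CHEK1, limits the firing of new origins and protects stalled forks, and most of these genes are transcribed more strongly in dividing cells.

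Summed FPKM was 631871 to 693299 per library, 13084 to 14092 genes reached 1 FPKM, and read depth is unknown, so no counting error can be given. The level of CHEK1 in ARP1 was 78.2 (control of overexpression), 114 (overexpression), 61 (control of knockdown) and 51.6 FPKM (labelled knockdown), and the same genotypes of H929 had 81.6, 107, 80.7 and 84.8. The H929 library labelled knockdown was thus not lower than its control, and neither the overexpression contrast (log2 fold change 0.47, SE 0.2, adjusted p = 0.994) nor the knockdown contrast (-0.08, SE 0.2, adjusted p = 0.903) passed the test by limma. All 8 plasma cell and myeloma markers were in the table, with sums of 1270 to 2487 FPKM, XBP1 leading at up to 976. SLAMF7, one of them, stood at 13.3 to 27.4 FPKM in ARP1 but only at 0.0778 to 0.201 in H929. By limma 4 of the 8 were lower in H929 (13.7% of all tested genes were) and 0 higher (13.4%). PAX5, a B cell factor, stood at 2.72, 3.75, 2.41 and 1.06 FPKM in the 4 ARP1 libraries and was listed at 0 in H929, and it was called lower there (adjusted p = 0.0047). Its part in the differences between the lines was not tested. Summed markers of T cells reached 0.673 (CD3D and CD3G at 0 in every library), of myeloid cells 1.01 (ITGAM at 0), of stroma 7.26 (LUM at 0) and of adipocytes 0.164 (ADIPOQ and FABP4 at 0).

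All 42 genes were measured well above the floor of the table. Each passed the filter of at least 1 FPKM in at least 2 libraries, and each had a mean level above the median of the 14905 genes that passed. The median of their means was 36.4 FPKM, against 10.7 over all genes tested, and 8 genes averaged 100 FPKM or more. Single values ran from 8.66 FPKM for POLE2 in the ARP1 library labelled knockdown to 807 for RRM2 in the H929 control of knockdown.

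Levels differed by role. Of the MCM genes, the subunits of the helicase ring and their partner MCM10, means ran from 39.8 FPKM for MCM10 to 184 for MCM7. Origin recognition genes ran from 11.3 for ORC4, the lowest mean of the 42, to 42.1 for ORC6. The licensing genes and their inhibitor lay close together, from 33.1 for CDC6 to 42.4 for CDT1, with GMNN at 42.2. Among the helicase partners means went from 15 for GINS3 to 47.2 for CDC45, and among primase and polymerase genes from 15.5 for POLE2, the second subunit of polymerase epsilon, to 105 for POLD2, the second subunit of polymerase delta. PCNA stood at 184 while the clamp loader genes reached down to 24.8 for RFC1. FEN1, the flap nuclease, averaged 90.7 and LIG1, the ligase that seals Okazaki fragments, 25.4. The fork protection partners TIPIN and TIMELESS averaged 26.7 and 22.3.

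MCM7 and PCNA, the most abundant genes of their roles, varied less in H929 (SD 5.9 and 10.2 FPKM over 4 libraries) than in ARP1 (SD 32.8 and 40.6). In what follows the 4 values of a line stand in the order control of overexpression, overexpression, control of knockdown, library labelled knockdown. MCM7 stood at 188, 202, 147 and 132 FPKM in ARP1, against 201, 209, 195 and 201 in H929. PCNA stood at 200, 229, 171 and 133 in ARP1, against 170, 191, 190 and 189 in H929. POLD2 stood at 106, 101, 94.5 and 72.4 in ARP1, against 151, 114, 99.1 and 102 in H929, with its highest value in the H929 control of overexpression. For all 3 the ARP1 library labelled knockdown was the lowest of the 8, and the ranges of the lines overlapped.

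CDC45, which completes the active helicase, stood at 48.7, 59.4, 51.1 and 45.7 FPKM in ARP1, against 47.4, 46.8, 41.5 and 37.2 in H929. ORC6, the smallest ORC subunit, stood at 39.6, 42.1, 41.6 and 32.4 in ARP1, against 45.1, 44.4, 44.6 and 46.8 in H929. MCM6, a subunit of the ring, stood at 71, 79.3, 73.6 and 77.1 in ARP1, against 63.2, 69.5, 62.2 and 71.6 in H929. The ARP1 library labelled knockdown was lowest of its line for CDC45 and ORC6 but not for MCM6, and the ORC6 libraries of the lines did not overlap.

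The remaining genes are given by their ranges. In the MCM group, MCM4 ran from 72.1 to 144 FPKM among ARP1 libraries and from 123 to 136 in H929, MCM5 from 74.4 to 106 and from 68.6 to 75.1, and MCM10, which helps to activate the ring, from 23 to 53.3 and from 33 to 47. Of the GINS subunits, GINS2 ran from 20.4 to 38.5 FPKM among ARP1 libraries and from 18.9 to 34.9 in H929, GINS3 from 13.9 to 19.6 and from 10.3 to 19.5, and GINS4 from 13.8 to 22.9 and from 17.9 to 22.8. For all 6 the ARP1 library labelled knockdown was the lowest of its line. ORC3, at 14.6 to 16.4 FPKM among ARP1 libraries and 11.5 to 15.4 among H929 ones, PRIM2, the regulatory primase subunit, at 15.9 to 20 and 18.5 to 22.5, and POLD3 of polymerase delta, at 16.9 to 18 and 18 to 19.6, had another library as their lowest in ARP1.

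**Figure D1:**
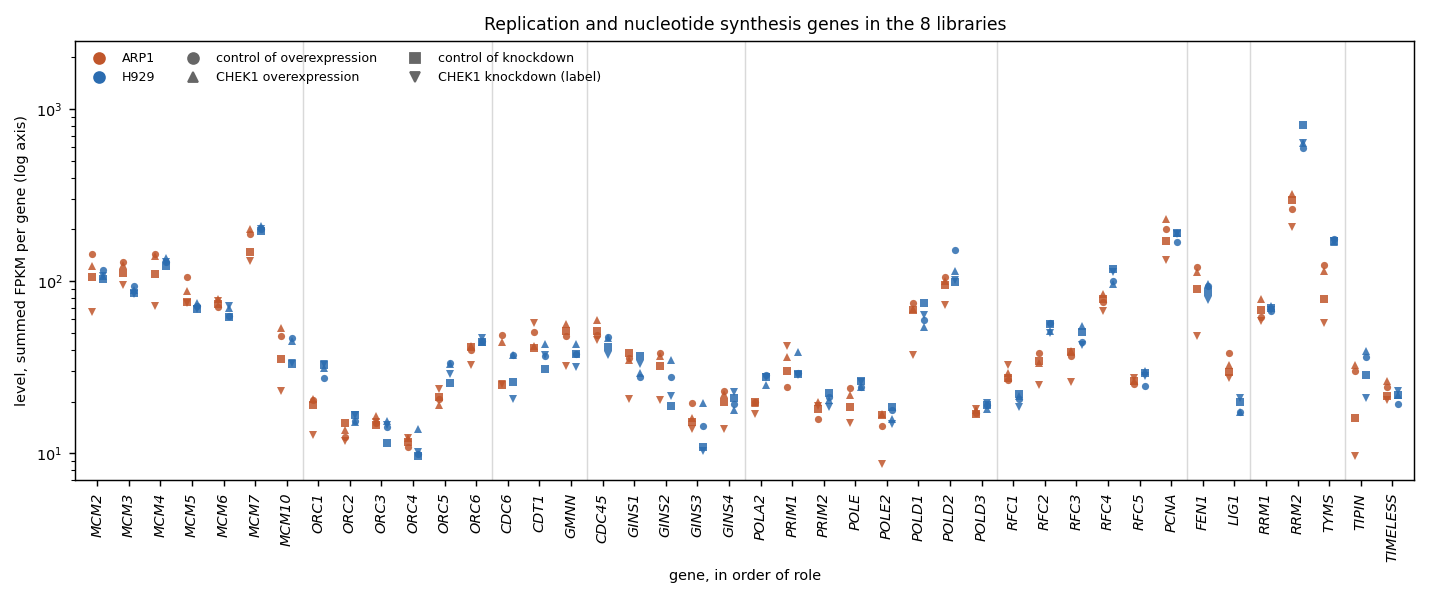
Levels of the 42 genes (summed FPKM, log axis) in each of the 8 libraries, genes grouped by role with grey lines between roles, colours for the cell lines and marker shapes for the genotypes, each point 1 library. RRM2 stands highest at 208 to 807 FPKM, and for many genes the downward triangle of ARP1, the library labelled knockdown, lies under the other ARP1 points.

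Promoters of many of these genes carry the word that E2F factors bind, a textbook feature of replication genes, and a few are shown because they set the members apart from other genes by sequence. RefSeq windows of 250 bases before to 50 after the start of the gene were found for 38 of the 42 (build GRCh38.p14; not for MCM4, MCM5, GINS4 and POLD3). The words TTTCCCGC, TTTCGCGC, TTTGCCGC and TTTGGCGC, searched on both strands with overlaps allowed, were present in 17 of the 38 windows (44.7%), against 3.31% of all 35116 windows and 4.96% of the 14436 windows of tested genes. In 15 of the 17 a match lay within 60 bases before the start or after it. Stretches of 60 bases on the strand of the gene, with the matches in capitals, follow for the thymidylate synthase gene (plus strand), the licensing gene CDT1 (plus), the clamp PCNA (minus), the clamp loader RFC3 (plus), POLA2 of polymerase alpha (plus), POLE of polymerase epsilon (minus), the ligase LIG1 (minus) and MCM6 (minus), where overlapping words on both strands join into a longer run.
TYMS chr18:657588-657647: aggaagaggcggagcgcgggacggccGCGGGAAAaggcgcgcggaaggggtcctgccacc
CDT1 chr16:88803728-88803787: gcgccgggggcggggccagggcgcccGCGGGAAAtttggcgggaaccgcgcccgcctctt
PCNA chr20:5126648-5126707: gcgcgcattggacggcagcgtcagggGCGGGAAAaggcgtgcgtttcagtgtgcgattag
RFC3 chr13:33818068-33818127: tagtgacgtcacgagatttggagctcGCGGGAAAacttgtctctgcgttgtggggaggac
POLA2 chr11:65261883-65261942: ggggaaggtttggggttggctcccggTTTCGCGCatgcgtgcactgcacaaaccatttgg
POLE chr12:132687343-132687402: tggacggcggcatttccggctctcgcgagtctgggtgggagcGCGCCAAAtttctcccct
LIG1 chr19:48170425-48170484: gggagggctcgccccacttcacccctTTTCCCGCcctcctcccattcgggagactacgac
MCM6 chr2:135876496-135876555: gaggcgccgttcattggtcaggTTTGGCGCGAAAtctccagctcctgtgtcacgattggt

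Other promoter words were less particular. The CCAAT word stood in 57.9% of the 38 windows against 35% of windows of tested genes, the SP1 word GGGCGG in 68.4% against 65.1%, and the CHR words TTTGAA and TTCGAA, known from mitotic genes, in 5.26% against 12.3%. RRM2, the gene with the highest level, held none of the E2F words searched and 3 copies of CCAAT in its window. Genes with and without an E2F word were set side by side with no test. The median log2 ratio of the ARP1 library labelled knockdown to its control was -0.23 over the 17 genes with the word and -0.34 over the 21 without, and 0.00 and -0.05 in H929. With overexpression it was -0.05 with the word and 0.13 without in ARP1, and 0.06 and 0.03 in H929. The median log2 fold change of H929 against ARP1 was 0.00 and 0.09. A match is a description of the letters, not of binding.

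The cell line was the comparison in which replication genes passed the test, with calls in nucleotide synthesis, origin recognition, the clamp loader, the second subunit of polymerase alpha, the ligase, MCM and fork protection. By limma on log2 of FPKM plus 1, with genotype as a term, 12 of the 42 genes (28.6%) differed between H929 and ARP1 at an adjusted p below 0.05, where 27.1% of all tested genes did. Of these, 9 were higher in H929 (13.4% of all genes were) and 3 lower (13.7% of all genes). At an unadjusted p below 0.05 the count was 19 (45.2%, against 41.1%). The share of replication genes called was thus near that of all genes, and the median log2 fold change was 0.06, against 0 over all genes. The 4 libraries of a line share no control with the other line, but they are 1 line each, and a p-value here reflects the spread of these libraries, not of other lines.

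RRM2, the regulatory subunit of ribonucleotide reductase, which makes deoxynucleotides for S phase, had the largest difference. It stood at 264, 323, 297 and 208 FPKM in ARP1, against 598, 636, 807 and 635 in H929. Every H929 library was above every ARP1 library, with means of 273 ± 49.9 and 669 ± 93.5 FPKM (SD, n = 4 each), a ratio of 2.45. The log2 fold change was 1.3 (SE 0.12, adjusted p = 0.00124), and the gene passed with any of the 8 libraries left out. Leaving out either library of a genotype takes that genotype out of the comparison of lines. The 8 fits thus make only 4 separate checks, 1 per genotype. RRM2 lies at chr2:10120698-10131419 (GRCh38, plus strand), and its pseudogenes RRM2P2, RRM2P3 and RRM2P4 are near copies with which reads could be shared. RRM1, the other subunit of the enzyme, stood at 66.6 ± 8.71 and 69.3 ± 1.9 FPKM and did not pass (log2 fold change 0.06, SE 0.095, adjusted p = 0.657).

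TYMS, thymidylate synthase, which makes the thymidine nucleotide, stood at 125, 115, 79.4 and 57 FPKM in ARP1, against 175, 169, 171 and 171 in H929. The H929 values lay close together and above all ARP1 values, while the ARP1 values were spread widely. The log2 fold change was 0.93 (SE 0.19, adjusted p = 0.0142), with means of 94.1 ± 31.5 and 172 ± 2.49. TYMS (chr18:657604-673578, plus strand) shares exon sequence with ENOSF1 on the opposite strand, and whether counting used the strand is not stated in the labels.

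ORC1, the largest ORC subunit, was higher in H929. It stood at 20.5, 20.8, 19.1 and 12.7 FPKM in ARP1, against 27.4, 31.4, 32.6 and 33.1 in H929, without overlap (log2 fold change 0.76, SE 0.16, adjusted p = 0.0168). ORC5 stood at 20.8, 19.1, 21.3 and 23.7 in ARP1, against 33.6, 33, 25.7 and 29.1 in H929, also without overlap (0.49, SE 0.12, adjusted p = 0.0294). ORC2, at 13.3 ± 1.51 and 16 ± 0.777 FPKM, and ORC6 did not overlap between lines either but did not pass, and ORC3 and ORC4 overlapped.

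The clamp loader split. RFC2, RFC3 and RFC4, small subunits of the loader, were higher in H929, and RFC1, the large subunit, was lower. RFC2 stood at 38.1, 33.4, 34.4 and 24.9 FPKM in ARP1, against 57.1, 51.2, 56.1 and 50.3 in H929 (a log2 difference of 0.71, SE 0.11, adjusted p = 0.00548), and like RRM2 it passed with any library left out. RFC4 stood at 75.3, 83.9, 79.2 and 67.2 in ARP1, against 101, 96.3, 118 and 113 in H929 (difference 0.48, SE 0.11, adjusted p = 0.0217). RFC3 stood at 37, 39.4, 38.8 and 25.9 in ARP1, against 44.6, 55.3, 50.9 and 42.7 in H929 (difference 0.46, SE 0.11, adjusted p = 0.0219). For each of these 3 the lowest H929 library was above the highest ARP1 library.

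RFC1 stood at 26.7, 29.3, 27.4 and 32.5 FPKM in ARP1, against 20.6, 21.6, 22.1 and 18.6 in H929, all H929 values below all ARP1 values. Its log2 fold change was -0.46 (SE 0.11, adjusted p = 0.0271), and with the levels scaled to the summed FPKM of each library it was -0.40 (adjusted p = 0.0509). RFC5, the remaining loader subunit, at 26.3 ± 0.892 and 28 ± 2.46 FPKM, and PCNA, at 183 ± 40.6 and 185 ± 10.2, overlapped between the lines and did not pass. RFC4 shares exon sequence with EIF4A2 and RFC5 with WSB2, each on the opposite strand.

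LIG1 showed the largest difference in the other direction. It stood at 38.2, 32.5, 29.5 and 27.4 FPKM in ARP1, against 17.4, 17.3, 19.9 and 20.9 in H929, without overlap, a ratio of means of 1.69 in favour of ARP1 (log2 fold change -0.72, SE 0.14, adjusted p = 0.0125). FEN1, which acts just before LIG1 on the lagging strand, stood at 93 ± 32.5 and 88.5 ± 8.19 FPKM and did not pass (0.01, SE 0.17, adjusted p = 0.983). MCM3 was the only MCM gene that passed. It stood at 130, 125, 112 and 94.9 in ARP1, against 93.7, 89.2, 85.9 and 84.9 in H929 (difference -0.37, SE 0.094, adjusted p = 0.029), and the closest libraries, 94.9 and 93.7, almost met.

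POLA2, the second subunit of polymerase alpha, stood at 19.8, 19.6, 19.9 and 16.9 FPKM in ARP1, against 28.6, 24.8, 27.6 and 27.6 in H929, without overlap (log2 fold change 0.49, SE 0.1, adjusted p = 0.0159). POLE, the catalytic subunit of polymerase epsilon, did not overlap between lines at 19.9 ± 3.92 and 25.2 ± 1.08 FPKM but did not pass (adjusted p = 0.116). TIPIN was called (0.59, SE 0.16, adjusted p = 0.0363) although its libraries overlapped, and it was lost with any of the 8 libraries left out, at adjusted p of 0.0509 to 0.129. In all, libraries did not overlap for 11 genes higher in H929 (26.2%, against 13.7% of all genes) and 3 lower (7.14%, against 13.3%). With any 1 library left out, ORC1 and TYMS passed in 6 of the 8 fits, POLA2, RFC4 and LIG1 in 4, and ORC5, RFC1, RFC3 and MCM3 in 2. As said for RRM2, these 8 fits are 4 separate checks, each made with either library of a genotype left out. The number of members called, which need not be the same genes, was then 3 to 12: 12 without the library labelled knockdown of either line, 3 without the control of knockdown of either line, 4 without the control of overexpression of either line, and 7 without the overexpression library of either line. Over all genes, 1999 were higher and 2036 lower with all libraries. Without the ARP1 library these were 1986 and 2138 (labelled knockdown), 1017 and 1036 (control of knockdown), 961 and 987 (control of overexpression), and 1211 and 1285 (overexpression). Calls over all genes thus fell in the same fits.

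**Figure D2:**
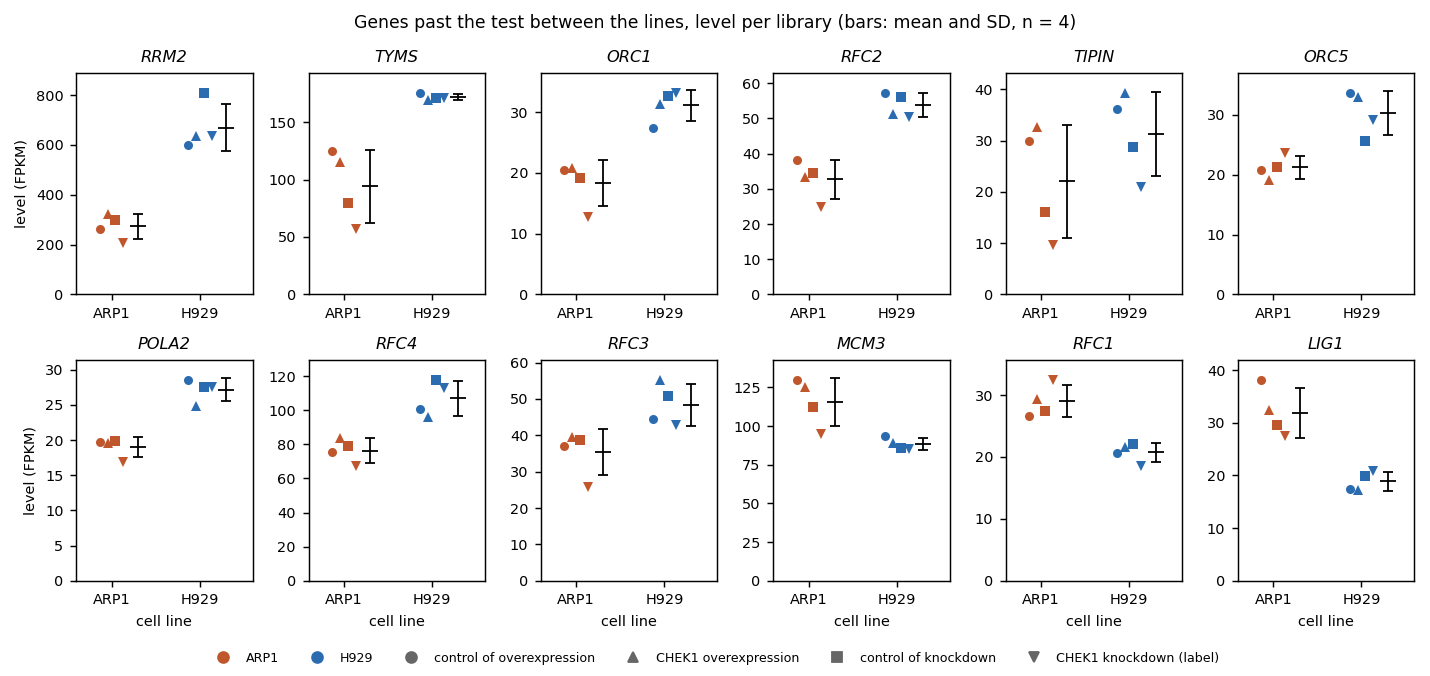
Level (FPKM, axes from 0) of the 12 genes that passed the test between the lines, each point 1 library, marker shapes for genotypes, and bars for the mean and SD of the 4 libraries of a line. The genes were picked by that test on these same libraries, so their separation follows from the choice and is no further evidence. The lines do not overlap for 11 of the 12 genes, and the TIPIN panel shows the overlap of 21 to 39.2 FPKM in H929 with 9.65 to 32.7 in ARP1. Over all 42 genes, libraries did not overlap for 26.2% higher in H929 and 7.14% lower.

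In the libraries labelled knockdown, replication genes were lower in ARP1 and mostly level in H929, and none passed the test over both lines. By limma 0 of the 42 genes were called (0.0134% of all genes), with a smallest adjusted p of 0.529, and 5 (11.9%, against 9.14% of all genes) had an unadjusted p below 0.05. The median log2 ratio of the members to the control of knockdown was -0.27 in ARP1, where it was -0.03 over all genes, and -0.01 in H929, where it was 0. In ARP1 31 of the 42 (73.8%, against 52.1% of all genes) had a lower level than in the control, and in H929 23 (54.8%, against 48.4%). Both lines were lower for 18 genes (42.9%, against 28.9%) and both higher for 6 (14.3%, against 27.2%). In RNA from whole cultures, fewer cells in S phase and less of an RNA per cell cannot be told apart.

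Within ARP1, 10 genes (23.8%, against 13.5% of all genes) were lower by 1.5-fold or more: MCM2, MCM4, MCM10, GMNN, GINS1, GINS2, POLE2, POLD1, FEN1 and TIPIN. None was higher by 1.5-fold, which 12.4% of all genes were. In H929 none of the 42 was lower by 1.5-fold (4.78% of all genes) or higher by it (4.72%). The ARP1 library labelled knockdown was also the lowest of all 4 ARP1 libraries for 31 genes (73.8%, against 33.8% of all genes), and the H929 one was the lowest of its line for 14 (33.3%, against 23.3%). With 1 library per line and genotype no test within a line could be made. The difference between the lines in this response was not tested.

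The helicase and its partners were among the genes lower in the ARP1 library. MCM2 stood at 145, 123, 106 and 66 FPKM in ARP1, against 117, 108, 103 and 108 in H929. The last ARP1 value was the lowest of the 8, and H929 was flat. GINS1, a subunit of the GINS complex, stood at 36, 34.8, 38.1 and 20.6 in ARP1, against 27.9, 29.4, 36.9 and 33 in H929, with log2 ratios to the control of -0.85 and -0.16 (fitted -0.50, SE 0.25, adjusted p = 0.568). MCM6 was the exception, with ratios of 0.07 and 0.20.

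POLE2 and POLD1, of the polymerases that extend the strands, were lower in both lines and were picked for that shared change. Other subunits of these polymerases did not share 1 direction. Log2 ratios in ARP1 and H929 were -0.31 and -0.03 for POLE, -0.38 and 0.04 for POLD2, and 0.08 and 0.03 for POLD3. POLE2 stood at 14.4, 16.9, 16.6 and 8.66 FPKM in ARP1, against 17.9, 15.9, 18.5 and 14.9 in H929, with log2 ratios of -0.87 and -0.30 (fitted -0.58, SE 0.21, adjusted p = 0.538). POLD1, the catalytic subunit of polymerase delta, stood at 74.4, 69.3, 68.2 and 37.1 in ARP1, against 59.7, 54.2, 75 and 63.4 in H929, with ratios of -0.86 and -0.24 (fitted -0.55, SE 0.27, adjusted p = 0.569). In ARP1 the library labelled knockdown lay under all others for both genes. In H929 it lay within the range of the others for POLD1 and just under them for POLE2.

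FEN1 stood at 121, 113, 90.2 and 48.2 FPKM in ARP1, against 93.6, 95.9, 86.7 and 77.7 in H929, the library labelled knockdown being the lowest of each line. Its log2 ratios to the control of knockdown were -0.89 and -0.16 (fitted -0.52, SE 0.25, adjusted p = 0.568). FEN1 shares exon sequence with FADS2 on its own strand and TMEM258 on the other. RFC3, at 38.8 and 25.9 FPKM in the ARP1 control and library labelled knockdown, against 50.9 and 42.7 in H929, had ratios of -0.56 and -0.25 (fitted -0.41, SE 0.15, adjusted p = 0.538). RRM2 had ratios of -0.51 and -0.34 (fitted -0.43, SE 0.17, adjusted p = 0.538), and the control of knockdown was the highest RRM2 library of H929.

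Licensing genes did not share a direction. GMNN, the inhibitor of licensing, stood at 47.9, 56.1, 51.4 and 32 FPKM in ARP1, against 38, 43.3, 37.7 and 31.6 in H929, lowest in the library labelled knockdown of each line (ratios -0.67 and -0.25). CDT1, which GMNN blocks, stood at 50.8, 42.1, 41 and 57.4 in ARP1, against 36.6, 43, 30.9 and 37.2 in H929. It was higher than the control of knockdown in both lines (ratios 0.48 and 0.26), and in ARP1 the library labelled knockdown was the highest of the 4. CDC6, the loader ATPase, had ratios of 0.03 and -0.30. None of the 3 passed the test.

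TIPIN, which with TIMELESS holds the stalled fork together and helps to activate CHK1, stood at 29.9, 32.7, 16.1 and 9.65 FPKM in ARP1, against 36.1, 39.2, 28.7 and 21 in H929. The library labelled knockdown was lowest and the overexpression library highest in each line, and each knockdown control was below the control of overexpression. Log2 ratios to the control of knockdown were -0.68 and -0.44 (fitted -0.56, SE 0.23, adjusted p = 0.539). TIMELESS stood at 24.3, 26.3, 21.4 and 20.4 in ARP1, against 19.3, 21.7, 21.9 and 23.1 in H929, with ratios of -0.06 and 0.07.

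None of the 12 mitosis markers of the list passed in this contrast. All 12 had a negative fitted value (52.1% of all genes did), although BUB1 and PLK1 were slightly above the control in H929 (log2 ratios 0.05 and 0.03), and the part of the markers in the values of the members was not tested. Between the 2 kinds of control, 10 of the 12 were fitted lower in the control of overexpression (52% of all genes were), with a median of -0.30. Their summed level was 883, 1135, 1059 and 765 FPKM in ARP1 and 1045, 1136, 1210 and 1110 in H929, and their median log2 ratio in the libraries labelled knockdown was -0.35 in ARP1 and -0.09 in H929. CCNB1, the mitotic cyclin, stood at 181 and 80.2 FPKM in the ARP1 control and library labelled knockdown, against 179 and 170 in H929. The fitted values over both lines depended on which library labelled knockdown was kept. Without the H929 one, in which CHEK1 was not lower, the median of the members went from -0.15 to -0.30. GMNN was then at -0.64 and POLD1 at -1.02. The ARP1 library stood alone for that genotype in this fit, which held no spread within it, so no call is read from it. Without the ARP1 library labelled knockdown the median of the members went from -0.15 to 0.01.

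**Figure D3:**
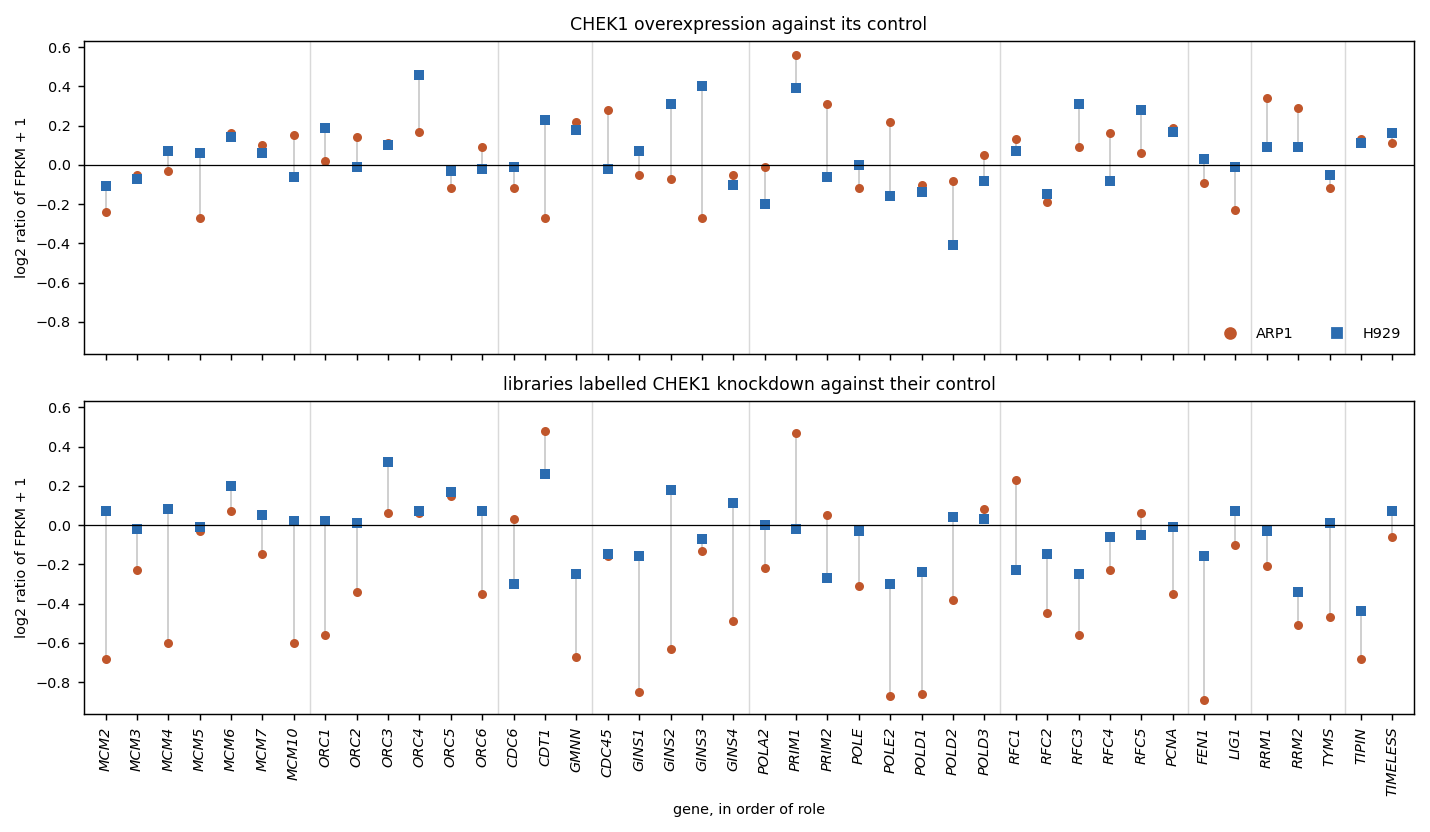
Log2 ratio of FPKM plus 1 for each of the 42 genes, overexpression against its control (top) and the library labelled knockdown against its control (bottom), 1 point per line and no error bars because each is a ratio of 1 library to 1. In the bottom panel most ARP1 points lie below 0, down to -0.89 for FEN1, while H929 points stay between -0.44 and 0.32.

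With CHEK1 overexpression the replication genes stayed close to their control in both lines. By limma 0 of the 42 were called (0.00671% of all genes), with a smallest adjusted p of 0.994, and 0 had an unadjusted p below 0.05 (4.45% of all genes). The median log2 ratio was 0.06 in ARP1 and 0.05 in H929, against -0.02 and 0 over all genes. Both lines were higher for 15 genes (35.7%, against 28% of all genes) and both lower for 12 (28.6%, against 30.1%). None of the 42 was past 1.5-fold in either direction, where 6.91% of all genes were lower and 4.56% higher in ARP1, and 5.2% lower and 3.73% higher in H929.

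PRIM1, the catalytic subunit of primase, came closest. It stood at 24.3, 36.2, 30 and 42 FPKM in ARP1, against 29.3, 38.7, 28.8 and 28.4 in H929, with log2 ratios of 0.56 and 0.39 (fitted 0.47, SE 0.21, adjusted p = 0.994). The overexpression library was the highest in H929, but in ARP1 the library labelled knockdown was higher still. PRIM1 shares exon sequence with NACA, an abundant gene on the same strand. ORC4 stood at 10.9, 12.3, 11.6 and 12.2 in ARP1, against 9.86, 13.9, 9.65 and 10.2 in H929 (ratios 0.17 and 0.46). PCNA had ratios of 0.19 and 0.17, GMNN of 0.22 and 0.18, MCM6 of 0.16 and 0.14 and TIPIN of 0.13 and 0.11, while RFC2 had -0.19 and -0.15 and MCM2 -0.24 and -0.11.

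In ARP1 the overexpression library was the highest of the 4 for 18 genes (42.9%, against 22.3% of all genes) and the control of overexpression for 15 (35.7%, against 22.1%), so most genes were highest in either library of that arm. The counts of genes higher or lower in both lines depended on the control. Against the control of knockdown of the same line, 23 genes were higher in both lines and 4 lower. The median of the members was then 0.13, against -0.02 over all genes. No share of all genes is given for these counts, so whether they are unusual cannot be told. Of the 12 mitosis markers 0 passed with overexpression. Their median log2 ratio was 0.32 in ARP1 and 0.12 in H929, with 12 of 12 positive in the fit (48.6% of all genes were) but AURKA and CDC20 at -0.04 and -0.01 in H929. The part of the markers in the values of the members was not tested.

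The difference between the effects of overexpression and knockdown was tested directly. By limma 0 of the 42 passed (0.0134% of all genes), and 3 (7.14%, against 7.98% of all genes) had an unadjusted p below 0.05: GMNN at 0.66, RRM2 at 0.62 (SE 0.24) and RFC3 at 0.60 (SE 0.21), with adjusted p = 0.621 for each. The median over the 42 was 0.17, against 0 over all genes.

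The 2 kinds of control carry no change of CHEK1 by label, but what they carry is not stated. CHEK1 itself stood at 78.2 FPKM in the control of overexpression and 61 in the control of knockdown in ARP1. In H929 it stood at 81.6 and 80.7. Differences of arm and of library both enter this contrast of the controls and cannot be told apart. By limma 0 of the 42 passed between them (0.0537% of all genes), and 3 (7.14%, against 10.7% of all genes) had an unadjusted p below 0.05. CDC6 was one of these, at 48.7 FPKM in the control of overexpression and 24.9 in the control of knockdown in ARP1, and at 37.5 and 25.9 in H929 (a log2 difference of 0.73, SE 0.15, adjusted p = 0.319). TIPIN (0.59) and POLD2 (0.39, SE 0.15, adjusted p = 0.443) were the others. Of the MCM genes 6 of 7 were higher in the control of overexpression in both lines, MCM6 being the exception in ARP1.

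Over all 42 genes 16 were higher in the control of overexpression in both lines (38.1%, against 30.3% of all genes) and 10 lower (23.8%, against 32.9%). The ratio passed 1.5-fold for 3 genes in ARP1 (7.14%, against 6.87% of all genes), CDC6, TYMS and TIPIN, and for POLD2 alone in H929 (2.38%, against 5.54%). None was lower by 1.5-fold in ARP1 (9.33% of all genes) or in H929 (8.19%). The log2 ratios between controls, 0.94 for CDC6, 0.85 for TIPIN and 0.65 for TYMS in ARP1, were of the size of the largest ratios seen in the library labelled knockdown of that line.

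Ratios between partner genes do not depend on library size. They were computed for 8 pairs chosen after the values were seen and carry no test. RRM2 was 4.26, 4.13, 4.38 and 3.55 times RRM1 in ARP1 and 8.86, 8.85, 11.61 and 9.31 times in H929, a gap with no overlap. RFC4 to RFC1 was 2.82, 2.87, 2.89 and 2.07 in ARP1 and 4.93, 4.45, 5.36 and 6.08 in H929, again apart. FEN1 to LIG1 was 3.15, 3.48, 3.06 and 1.76 in ARP1 and 5.38, 5.55, 4.36 and 3.72 in H929. MCM7 to MCM6 ran from 1.72 to 2.65 for ARP1 and from 2.81 to 3.17 in H929, so for these 4 pairs the lines did not overlap. RRM2, RFC4, RFC1 and LIG1 were already called between the lines, so their pairs repeat those differences. No share over other pairs of genes was computed. POLD2 to POLD1, at 1.39 to 1.95 and 1.32 to 2.53, did overlap.

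Ratios of several pairs had their extreme in the libraries labelled knockdown. CDT1 to GMNN was 1.06, 0.75, 0.80 and 1.79 in ARP1 and 0.96, 0.99, 0.82 and 1.18 in H929, highest in the library labelled knockdown of each line. TIPIN to TIMELESS was 1.23, 1.24, 0.75 and 0.47 in ARP1 and 1.87, 1.80, 1.31 and 0.91 in H929, lowest in the library labelled knockdown of each line and lower in both knockdown arms than in both overexpression arms. The catalytic POLE to its partner POLE2 ran from 1.13 to 1.74 over all 8 libraries. It too was highest in the library labelled knockdown of each line, at 1.73 in ARP1 and 1.74 in H929. FEN1 to LIG1 (1.76 and 3.72) and MCM7 to MCM6 (1.72 and 2.81) were lowest in those libraries. RFC4 to RFC1 was lowest there in ARP1 (2.07) but highest there in H929 (6.08).

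**Figure D4:**
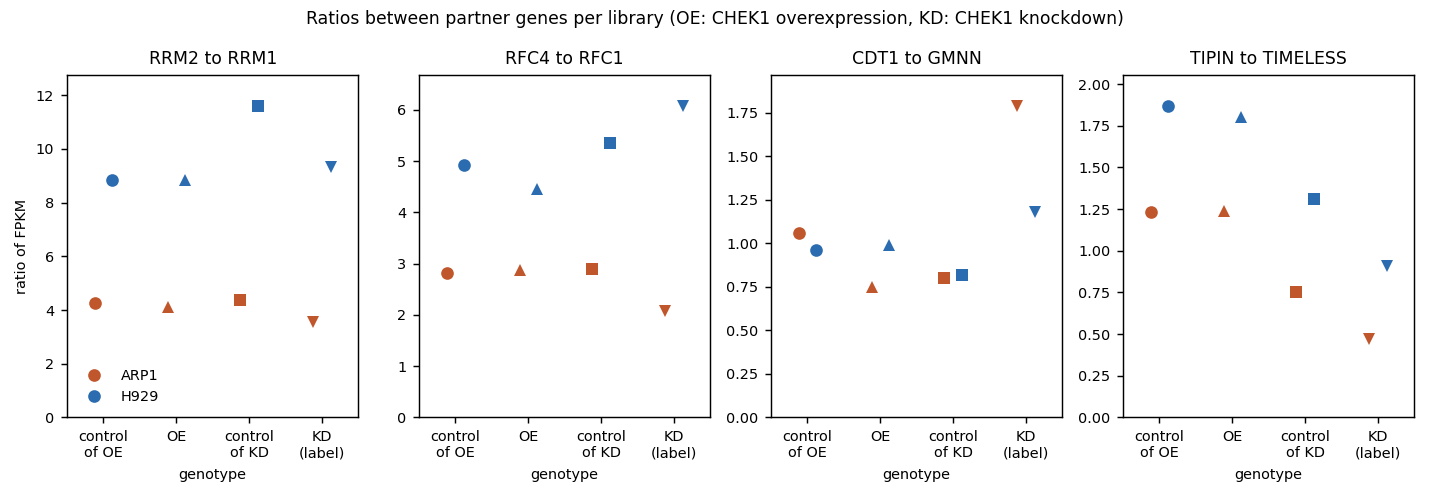
Ratio of FPKM between partner genes in each of the 8 libraries (axes from 0, OE for overexpression, KD for knockdown), colours for the cell lines. RRM2 to RRM1 and RFC4 to RFC1 separate the lines, at 3.55 to 4.38 against 8.85 to 11.61 and at 2.07 to 2.89 against 4.45 to 6.08. CDT1 to GMNN is highest and TIPIN to TIMELESS lowest in the library labelled knockdown of each line. Of the pairs not drawn, POLE to POLE2, FEN1 to LIG1 and MCM7 to MCM6 also have an extreme there.

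At the level of transcripts the set held 180, of which 179 are annotated as protein coding. The same transcript led in all 8 libraries for 37 genes, and the leader changed for MCM5, ORC3, POLE2, TIMELESS and TIPIN. Several genes were close to 1 transcript: GINS1-201 and MCM6-201 held 100% of their gene in every library, CDT1-201 95.8 to 100%, TYMS-203 98.3 to 100%, PRIM1-201 96.4 to 100%, MCM2-201 96.7 to 99.6%, PCNA-201 94.4 to 98.3%, ORC6-201 93 to 100% and FEN1-201 90.8 to 97.3%. MCM3-201 held 80.9 to 90.4%, MCM7-201 79.4 to 86.1%, RFC2-201 86.8 to 91.3%, ORC5-201 86.8 to 96.9% and POLD1-201 59.9 to 75.1% of their genes. In a fit per transcript 9 of the 122 tested transcripts, from 7 of the genes, differed between the lines, against 6.5% of all transcripts tested, and 0 in the other contrasts.

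Other genes were split between transcripts with shares of at least 20% in some library. RRM2-201 held 71.4 to 88% and RRM2-206 9.16 to 20.8%. GMNN-201 held 47.6 to 62.1% and GMNN-202 31.8 to 43.7%, LIG1-201 39.8 to 60.7% and LIG1-202 22.6 to 39.5%, and ORC1-202 70.2 to 90.2% with ORC1-201 at 9.82 to 29.8%. RFC1-201 and RFC1-202 held 65 to 73.5% and 12.1 to 24.9%, RFC3-201 and RFC3-202 78.5 to 97.3% and 2.71 to 21.5%, and RFC4-201 and RFC4-205 60.5 to 78% and 8.11 to 22%. POLA2-201 and POLA2-202 held 79.5 to 94.9% and 4.6 to 20.5%, POLD2-218 and POLD2-207 57.2 to 75.3% and 17.2 to 24.2%, ORC4-202 and ORC4-204 46.7 to 70.2% and 13.6 to 30%, and CDC45-201 and CDC45-206 69.5 to 86.1% and at most 20.3%. Short-read FPKM of transcripts that overlap are estimates, so a shift between them is less certain than the gene sum.

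In TIPIN the leading transcript differed between libraries. TIPIN-201, of 1744 nt, stood at 14.8, 17.9, 15.2 and 5.92 FPKM in ARP1, against 13.1, 15.4, 16.7 and 12 in H929. TIPIN-203, of 1009 nt, stood at 15.1, 14.8, 0.924 and 3.73 in ARP1, against 19, 23.8, 12.1 and 8.94 in H929. The longer transcript was thus about level between the controls, and the lower gene sum in the control of knockdown lay in the shorter one. The lower sum in the ARP1 library labelled knockdown lay in the longer one, since TIPIN-203 was higher there than in its control. The POLE2 transcripts differed likewise. POLE2-201 stood at 8.41 and 11 FPKM in the controls of overexpression of ARP1 and H929 and at 4.52 and 5.09 in the controls of knockdown, POLE2-206 at 0.00063 and 0.00208 against 6.57 and 3.05, and POLE2-203 held 23.9 to 42.5% of the gene throughout.

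**Figure D5:**
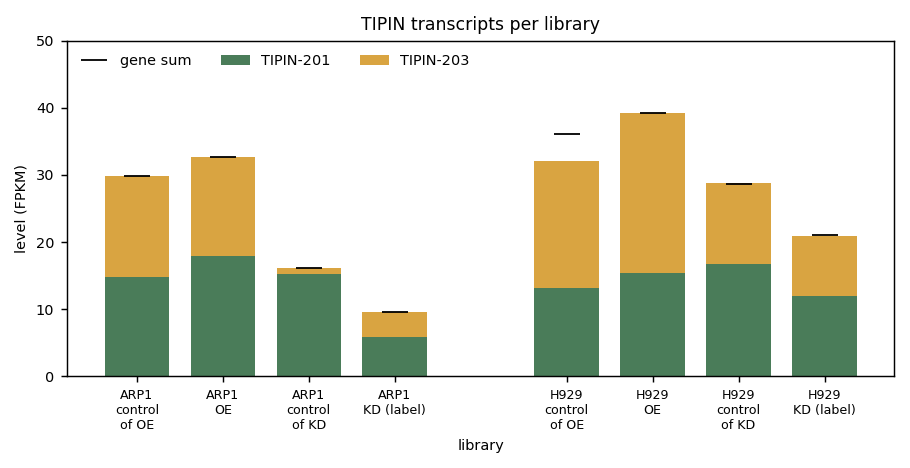
Level (FPKM, axis from 0) of the TIPIN transcripts TIPIN-201 and TIPIN-203 stacked for each of the 8 libraries, with a black mark for the sum over all transcripts of the gene. TIPIN-203 is 14.8 to 23.8 FPKM in the 4 libraries of the overexpression arm and 0.924 to 12.1 in the 4 of the knockdown arm.

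Further replication genes, from lists of known roles, were also called between the lines alone. Of 27 further replication genes, 4 were higher and 4 lower in H929 by limma, where 13.4% of all tested genes were higher and 13.7% lower, so the counts were near the background. Among them were DBF4, which activates the kinase that fires origins (log2 fold change 0.75, SE 0.095, adjusted p = 0.00352), and DONSON, a fork protein (0.78, SE 0.12, adjusted p = 0.0054), both higher. CLSPN, the claspin gene, whose product bridges the fork and CHK1, was higher as well (0.51, SE 0.14, adjusted p = 0.04), and MTBP, an origin firing factor, was lower (-0.72, SE 0.12, adjusted p = 0.00852). Of 20 further nucleotide supply genes 5 were higher and 3 lower, against the same shares of all genes: IMPDH1 was higher in H929 (difference 0.91, SE 0.2, adjusted p = 0.0202) and IMPDH2, the sister enzyme of guanine nucleotide synthesis, lower (-0.66, SE 0.086, adjusted p = 0.0039), with DCK, the salvage kinase, higher (0.69, SE 0.1, adjusted p = 0.00495) and UMPS, of pyrimidine synthesis, lower (-0.72, SE 0.15, adjusted p = 0.0167). None of the 47 passed in the other contrasts.

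For the libraries labelled knockdown the medians over both lines were -0.13 for the further replication genes and -0.22 for nucleotide supply. IMPDH1 stood at 50.9 and 22.9 FPKM in the ARP1 control and library labelled knockdown, against 84.5 and 79 in H929 (fitted -0.61, SE 0.29, adjusted p = 0.568). NME1, a nucleoside diphosphate kinase, stood at 249 and 128 in ARP1, against 231 and 201 in H929 (difference -0.57, SE 0.21, adjusted p = 0.538). DSCC1, a subunit of an alternative clamp loader, stood at 15 and 10.4 in ARP1, against 11.5 and 8.45 in H929 (difference -0.45, SE 0.16, adjusted p = 0.538). UMPS went the other way, at 20.9 and 43.9 FPKM in ARP1 and 17.1 and 19.3 in H929 (difference 0.60, SE 0.22, adjusted p = 0.538). As among the members, the ARP1 ratios were the larger for IMPDH1, NME1 and UMPS, and narrowly so for DSCC1 (log2 ratios -0.49 in ARP1 and -0.40 in H929).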

How the data were processed

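RNA-seq of 8 libraries was deposited as 1 table of FPKM per transcript, 1 column per library. Per the submitters' processing notes, the authors used Bowtie 0.12.2, HISAT2 2.0 and StringTie 1.3.0, and the notes list mm8, a mouse build. Identifiers in the table are of human transcripts, and the human build and strand setting are not given in the sources used here. The deposited FPKM values were joined to GENCODE 29 by identifier: 87707 of 88209 transcripts matched, 502 did not, and values were summed over 24351 genes. Genes with at least 1 FPKM in at least 2 libraries were fitted on log2(FPKM + 1), so fold changes of low genes are understated, with limma 3.58.1 in R 4.3.3, using genotype and cell line as terms, a variance trend and Benjamini-Hochberg adjustment over all tested genes at 0.05. Same-numbered samples are the same cell line, which is the pairing. The design left 3 residual degrees of freedom. Promoters came from RefSeq, and figures and joins from Python 3.11.15 with pandas 2.3.3 and matplotlib 3.10.9. The fit was tested on simulated data. The labels' protocol text mentions adipose tissue.

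The 42 genes and the other lists were chosen with earlier results of these data known. Values in every library were given for genes past the threshold in any contrast, for the 8 genes per CHEK1 contrast with the largest change shared by both lines, for up to 6 genes per direction whose lines did not overlap, and for the most abundant gene of each role. Transcripts with at least 20% of such a gene were named, and up to 4 genes per further list and contrast. Alternatives covered transcript length and type, the pseudocount, filters, scaling, the variance trend, the libraries fitted, the control used, transcripts in place of genes, no term for line, and leaving out each library.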

Additional observations from a re-analysis of the deposited data

Results flagged for a closer look

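Within the 84 sets of 4 libraries of 1 gene in 1 line, 5 had a library far from the other 3 by Dixon's criterion for 4 values, and chance gives about 1 in 20. ORC4 stood at 13.9 FPKM in the H929 overexpression library, above the others. PRIM1 stood at 38.7 FPKM in that same library, again above the others. POLA2 stood at 16.9 and POLD1 at 37.1 FPKM in ARP1 cells labelled knockdown, each below the others. PCNA stood at 170 FPKM in the H929 control of overexpression, below the others.

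GINS3 went in opposite directions with overexpression, with a log2 ratio of -0.27 in ARP1 and 0.40 in H929. There is 1 library per line and genotype, so this difference was not tested.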

How the results depend on the processing

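Over all alternatives, 195 counts and medians stayed on their side or within 1.5 times or 1 SD and 20 moved. Of the named genes 432 values kept their direction and side of the threshold, 54 lost the call and 6 changed sign. A further 4 changed side only in a fit with 1 library for a genotype, which is not read as a call. Genes followed in the CHEK1 contrasts had no call to lose, so the 54 fall on the 12 genes called between the lines. With a library left out, RRM2 and RFC2 kept the call in all 8 fits, which make 4 separate checks of the lines, and TIPIN in 0. The number of genes called between the lines was 7 with transcripts in place of genes and 3 to 12 with a library left out, where the median was -0.04 to 0.14. The left-out fits with fewer members called also had fewer calls over all genes. The overexpression median was 0.06 with median-ratio scaling, 0.03 with levels scaled to the summed FPKM, 0.13 against the other control and -0.07 to 0.15 with a library left out. With the other control 4 genes were lower and 23 higher in both lines with overexpression. In the H929 library labelled knockdown 2 were then lower by 1.5-fold. No share of all genes is given for these counts, so they cannot be set against the background. With a library left out, the knockdown median was -0.30 to 0.01, the median difference of effects was 0.00 to 0.35 and that between controls 0.00 to 0.15. Without the H929 library labelled knockdown, the fitted values were -0.88 for POLE2, -0.64 for GMNN, -1.02 for POLD1 and -0.94 for GINS1. A genotype with 1 library shows no spread of its own, so no call is read from that fit.

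With overexpression MCM2 was 0.14 against the other control and 0.06 without the ARP1 control of overexpression, PCNA was -0.02 and TIPIN -0.11 without the ARP1 overexpression library, and PCNA was 0 and TIPIN -0.10 without the H929 control of overexpression. Over all left-out libraries MCM2 was -0.42 to 0.06, PCNA -0.02 to 0.38 and TIPIN -0.11 to 0.35. The cause was not tested. Without the replicate block, that is with no term for line, 0 of the 42 genes were called in the CHEK1 and control contrasts, with medians of 0.04 for overexpression, -0.15 for knockdown, 0.17 for their difference and 0.03 between controls. Read depth is unknown, so counting error could not be set beside the levels.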

Other observations

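Genes of chromatin assembly and S phase control were also measured. Of 20 such genes 6 were higher and 1 lower in H929 by limma, where 13.4% of all tested genes were higher and 13.7% lower. CCNE2, the cyclin that drives entry into S phase with CDK2 (log2 fold change 1.28, SE 0.12, adjusted p = 0.0014), and TFDP1, the partner of E2F factors (1.25, SE 0.16, adjusted p = 0.00337), had the largest differences, and CDK2 itself was lower (-0.34). None passed in the CHEK1 contrasts. In the libraries labelled knockdown the median was -0.21, with 15 of 20 negative (52.1% of all genes were), and CDC25A, the phosphatase that CHK1 marks for destruction, had log2 ratios of -1.0 in ARP1 and -0.15 in H929.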
